A study of Mus musculus with 18 samples.

Results

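The Schlafen family was followed in bone marrow-derived macrophages (BMDMs) of Prep+/- mice, called Het here, and of their Prep-/- littermates, called KO. The 7 genes Slfn1, Slfn2, Slfn3, Slfn4, Slfn5, Slfn8 and Slfn9 were taken by symbol from a table of read counts. All 7 were among its 16314 gene symbols and among the 12021 genes that were abundant enough to be tested. Prep encodes prolyl endopeptidase, an enzyme that cleaves small peptides after proline. The mice had a C57BL6/J background, Prep was knocked out in the whole animal and not in macrophages alone, and the control group carried 1 intact Prep allele, so no group was wild type. Femoral marrow cells of both genotypes were grown for 7 days in 50 ng/ml M-CSF. The cells were then left unstimulated (M0), given 50 ng/ml LPS (M1), or given 20 ng/ml IL-4 with 20 ng/ml IL-13 (M2), both for 24 h. Bulk RNA-seq of 3 biological replicates in each of the 6 groups gave 18 libraries, and whether replicates came from separate animals is not given in the sources used here.

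Schlafen proteins are grouped by size. The short members Slfn1 and Slfn2 and the intermediate members Slfn3 and Slfn4 lack the helicase-like domain that the long members Slfn5, Slfn8 and Slfn9 carry. Many Schlafen genes are induced by type I interferon and by bacterial products in macrophages and T cells. Slfn2 is known for holding T cells in a resting state and Slfn1 for slowing the growth of thymocytes, while long members have been linked to the handling of RNA and to antiviral defence.

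In the GRCm39 assembly the 7 genes formed 1 cluster on chromosome 11, with Slfn5 first (82842100 to 82855666) and followed by Slfn9 (82868552 to 82882656), Slfn8 (82892984 to 82911669), Slfn2 (82955609 to 82961504), Slfn1 (83007615 to 83013496), Slfn4 (83066012 to 83081042) and Slfn3 (83082123 to 83109101). Slfn8 and Slfn9 lay on the minus strand and the other 5 on the plus strand. Together with Slfn14 the cluster spanned 335 kb. Slfn14 and Slfnl1, which lies outside the cluster, were in the count table but had too few counts to be tested, and Slfn10 was not analysed here. The encoded proteins have 337 (Slfn1), 378 (Slfn2), 640 (Slfn3), 602 (Slfn4), 884 (Slfn5), 910 (Slfn8) and 910 (Slfn9) residues.

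Some members are close copies, which matters for short reads. Slfn8 and Slfn9 were identical at 781 of 910 aligned residues (85.8%), and Slfn3 and Slfn4 at 499 of 595 (83.9%). In the canonical transcripts, 8.82% of the 51-base stretches of Slfn8 occurred unchanged in Slfn9 and 5.26% of those of Slfn9 in Slfn8. The same shares were 4.72% of Slfn3 in Slfn4 and 6.27% of Slfn4 in Slfn3. How reads that match both copies were counted is not given in the sources used here, so each value of these 4 genes carries that limit, and results are also given for the summed counts of each pair. Slfn10 is as close a copy of Slfn8 (identical at 85.6% of aligned residues) and Slfn9 (86.8%), and 7.74% of the 51-base stretches of Slfn8 and 6.40% of those of Slfn9 occurred in it. Its counts were not analysed here, and the sum of Slfn8 and Slfn9 does not remove a split of reads with it.

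The proximal promoters of 3 members held the core letters of the interferon-stimulated response element (ISRE), GAAANNGAA, the sequence that interferon-activated factors bind. The core was searched on both strands in the 250 bases before each RefSeq start, alone or overlapping other motifs, and occurred in 7.13% of 32851 promoter windows of the same length. Windows matched all 7 members. The ISRE core was found in Slfn5, Slfn8 and Slfn9, and the letters were absent from the windows of Slfn1, Slfn2, Slfn3 and Slfn4. The Slfn2 window (82955688 to 82955937) lay within the annotated gene, so the bases before the annotated start of Slfn2 were not searched. The gamma-activated site TTCNNNGAA (7.02% of windows) and the kappaB core GGGANTTTC (0.941%) matched no member's window, while the PU.1 core GAGGAAG (10.6%) matched that of Slfn9. Only exact matches to these letters were counted, so a window without a match may still hold a close variant of the motif. The stretches that hold the ISRE cores are given here because Slfn8 and Slfn9, whose mRNA moved in opposite directions with the knockout in M0, carry nearly the same sequence there. Each runs 5′ to 3′ on the strand of its gene, the letters come from RefSeq promoter windows of GRCm38.p6, the positions from an exact match to GRCm39, and capitals mark the core on either strand.
Slfn5, chr11:82842691-82842810, plus strand: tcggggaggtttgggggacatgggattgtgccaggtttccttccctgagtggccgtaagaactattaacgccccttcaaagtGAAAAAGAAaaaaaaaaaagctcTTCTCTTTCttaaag
Slfn8, chr11:82911672-82911791, minus strand: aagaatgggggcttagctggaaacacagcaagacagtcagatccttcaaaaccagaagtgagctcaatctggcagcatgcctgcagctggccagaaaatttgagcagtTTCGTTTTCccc
Slfn9, chr11:82882689-82882808, minus strand: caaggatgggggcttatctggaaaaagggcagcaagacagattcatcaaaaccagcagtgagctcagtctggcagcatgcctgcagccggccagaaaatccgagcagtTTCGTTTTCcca
The Slfn8 and Slfn9 stretches lie before the annotated genes and were identical at 105 of 116 aligned bases (90.5%). Both carried the same core on the strand opposite to the gene, ending 39 bases (Slfn8) and 36 bases (Slfn9) before the RefSeq start. The Slfn5 stretch carried 1 core on each strand, ending 147 and 124 bases before the RefSeq start. It lies within the annotated Slfn5 gene, whose first base is upstream at 82842100.

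Libraries held 19068237 to 22598279 counts. Prep was at 551 to 900 normalized counts in the 9 Het libraries and at 31.2 to 68.1 in the 9 KO libraries, without overlap. A normalized count is the deposited count divided by the size of its library after TMM scaling, relative to the mean library. Replicate 3 of KO M0 and replicate 3 of KO M2 stood apart from their own groups, with a chi-square per degree of freedom of 106 to 114 against their replicates, where all other replicate pairs had 9.50 to 47.3. The 6 macrophage markers together reached 9934 to 47341 CPM (counts scaled to library size) in every library. Natural killer, dendritic, erythroid and stromal markers summed to at most 20.9 CPM. A gene is said to have risen or fallen where edgeR's quasi-likelihood test gave an adjusted p under 0.05 (Benjamini-Hochberg over the 12021 genes) and a fold change over 1.5.

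Slfn2 was the most abundant member in every group. Per length, its group mean made up 62.8% to 93.4% of the summed family level (RPKM, a level per kilobase of the canonical transcript and per library size). Its level was 128 ± 13.8 RPKM (SD, n = 3) in Het M0 and 745 ± 160 RPKM in KO M1. In Het M0 it was followed by Slfn9 at 9.17 ± 1.45 RPKM and Slfn5 at 6.79 ± 1.01 RPKM, and in KO M0 by Slfn5 at 30.6 ± 8.52 RPKM and Slfn8 at 11.9 ± 4.78 RPKM. Slfn3 had the lowest level of the family in M1 (0.973 ± 0.232 RPKM in Het and 2.64 ± 0.723 RPKM in KO), where Slfn4 reached 70.0 ± 17.9 RPKM in Het and 156 ± 51.4 RPKM in KO. The family as a whole took 0.0432% to 0.0451% of all counts in Het M0, 0.0654% to 0.0920% in KO M0, 0.164% to 0.182% in Het M1 and 0.229% to 0.359% in KO M1. In M2 the shares were 0.0407% to 0.0489% in Het and 0.0382% to 0.0594% in KO, which overlapped.

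**Figure D1:**
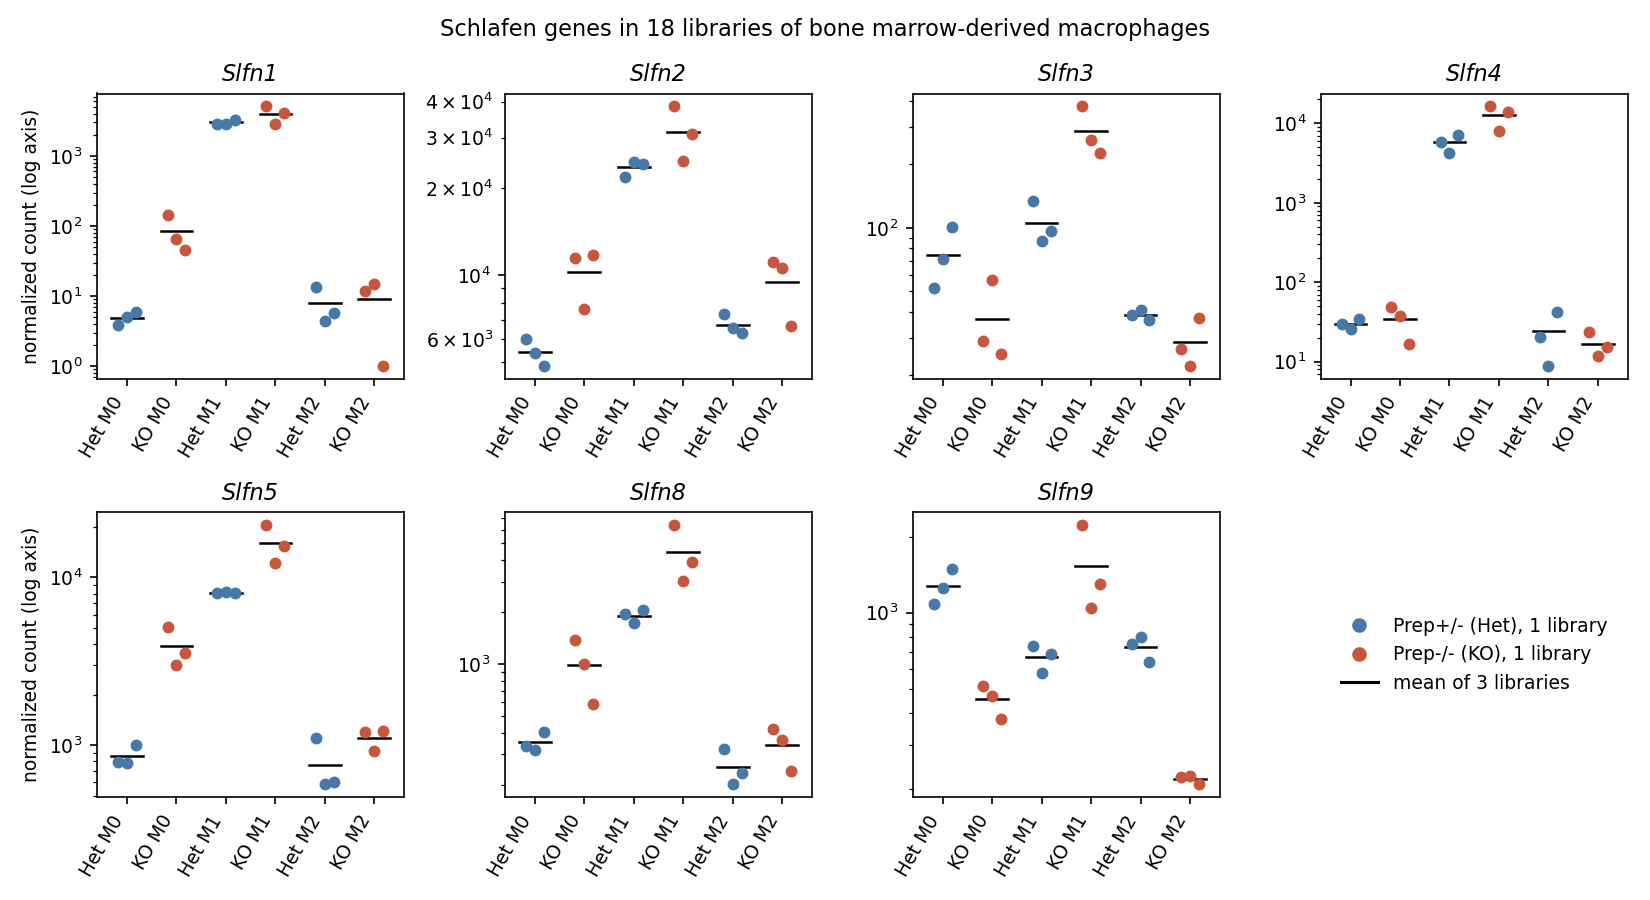
Normalized counts of the 7 Schlafen genes (log axes, 1 panel per gene) in Het (blue) and KO (red) macrophages in M0, M1 and M2, with 1 point per library and a line at the mean of 3 libraries. Slfn1 lies at 143 or below in all M0 and M2 libraries and at 2838 or above in all M1 libraries, and Slfn9 is the only member with KO libraries below Het libraries in both M0 and M2 and above them in M1.

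The first comparison asks what loss of Prep did to the family in resting macrophages. In M0, Slfn1, Slfn2, Slfn5 and Slfn8 were higher in KO than in Het, Slfn3 and Slfn9 were lower, and Slfn4 showed no detectable difference. The 4 of 7 members that rose compare with 15.4% of all genes tested, and the 2 that fell compare with 17.2%. The median log2 fold change was 0.93 over the members and 0.02 over all genes tested.

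Slfn1 had 3.86, 5.01 and 5.94 normalized counts in the 3 Het M0 libraries and 143, 65.6 and 45.9 in the KO M0 libraries. The groups did not overlap, but the Het level rested on 4 to 7 deposited counts per library. Its log2 fold change was 4.05 ± 0.56 (SE; adjusted p = 3.00e-05 in edgeR's quasi-likelihood test). Slfn2 was at 6002, 5378 and 4842 in Het M0 and at 11478, 7640 and 11700 in KO M0, again without overlap, with a log2 fold change of 0.93 ± 0.20 (adjusted p = 0.00118).

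Among the long members, Slfn5 rose most. It was at 790, 780 and 1007 normalized counts in Het M0 and at 5076, 2997 and 3544 in KO M0, every KO library lying above every Het library (log2 fold change 2.17 ± 0.25, adjusted p = 6.80e-06). Slfn8 was at 338, 317 and 404 in Het M0 and at 1379, 997 and 584 in KO M0. Its groups did not overlap, replicate 3 being the lowest of the KO libraries, and the log2 fold change was 1.48 ± 0.30 (adjusted p = 7.59e-04).

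Slfn9, the near copy of Slfn8, went the other way. It was at 1084, 1246 and 1484 normalized counts in Het M0 and at 514, 468 and 380 in KO M0. The groups did not overlap, with a log2 fold change of -1.49 ± 0.22 (adjusted p = 4.52e-05). When the counts of Slfn8 and Slfn9 were summed, their log2 fold change was -0.17 ± 0.25 (adjusted p = 0.589), so the pair's sum did not change detectably while its makeup did. Slfn9 made up 76.3% to 79.7% of the pair's counts in Het M0 and 27.1% to 39.4% in KO M0.

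The intermediate members were rare in M0. Slfn3 was at 52.1, 71.0 and 101 normalized counts in Het M0 and at 29.1, 56.7 and 25.4 in KO M0, where replicate 2 of KO lay inside the Het range. Its log2 fold change was -1.002 ± 0.32 (adjusted p = 0.0166). That call did not survive the loss of 1 library: the adjusted p was 0.0914 without replicate 3 of Het M0, 0.0691 without replicate 1 of KO M0 and 0.0626 without replicate 3 of KO M0. Slfn4 was at 29.9, 25.9 and 34.8 in Het M0 and at 49.2, 38.1 and 16.6 in KO M0, which overlapped (log2 fold change 0.20 ± 0.47, adjusted p = 0.753). The sum of Slfn3 and Slfn4 had a log2 fold change of -0.55 ± 0.33 (adjusted p = 0.178).

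Markers of other cells moved with genotype in M0 and are given beside these results. The 3 of 6 T cell markers in the table summed to 0.947 to 1.09 CPM in Het M0 and 8.16 to 29.7 CPM in KO M0. Nearly all of that was Cd4, at 18 to 24 counts in Het M0 and 170 to 625 in KO M0, whereas Cd3d, a subunit of the T cell receptor complex, had 0 counts in every KO M0 library and Lck had 2 to 7. The 3 of 5 B cell markers summed to 3.01 to 4.78 CPM in Het M0 and 8.66 to 11.5 CPM in KO M0. Cd79b, at 75 to 103 and 207 to 242 counts, carried that sum, with Cd79a and Ms4a1 at 0 in KO M0. The 10 granulocyte markers, all in the table, summed to 31.9 to 43.97 CPM in Het M0 and 67.9 to 156 CPM in KO M0, most of it from S100a8, S100a9, Ngp and Ltf. The 5 dendritic cell markers summed to 0.200 to 0.501 CPM in Het M0 and 0.969 to 1.42 CPM in KO M0, also without overlap. Siglech had 0 counts in every Het M0 library and 4 to 16 in KO M0, and Flt3 had 0 to 1 and 2 to 11. Counts of Zbtb46 (2 to 8 and 6 to 8), Xcr1 (0 to 2 in both) and Clec9a (1 to 5 and 0 to 8) overlapped. The macrophage markers were higher too, at 18639 to 22084 CPM in Het M0 and 29845 to 47341 CPM in KO M0. The part of these shifts in the Schlafen differences was not tested, and in bulk RNA more cells of a type and more RNA per cell cannot be told apart.

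The same question was asked under LPS. In M1, Slfn3, Slfn4, Slfn5, Slfn8 and Slfn9 were higher in KO than in Het, 5 of 7 members where 12.3% of all genes tested rose, while Slfn1 and Slfn2 did not pass the test. The members' median log2 fold change was 1.15, against 0.04 over all genes tested.

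Slfn5 was at 8041, 8209 and 8094 normalized counts in Het M1 and at 20527, 12254 and 15436 in KO M1. Every KO library lay above every Het library, with a log2 fold change of 0.99 ± 0.24 (adjusted p = 0.00556 in edgeR's quasi-likelihood test). Slfn8 was at 1942, 1732 and 2042 in Het M1 and at 6377, 3028 and 3874 in KO M1 (log2 fold change 1.22 ± 0.29, adjusted p = 0.00484). Slfn9 was at 738, 575 and 685 in Het M1 and at 2222, 1046 and 1300 in KO M1, so that the gene lowered by the knockout in M0 was raised by it in M1 (log2 fold change 1.19 ± 0.21, adjusted p = 7.21e-04). Neither gene's groups overlapped, and replicate 1 was the highest KO library for both.

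In M1 the share of Slfn9 in the Slfn8 and Slfn9 counts was 24.9% to 27.5% in Het and 25.1% to 25.8% in KO, overlapping between genotypes. The sum of the pair had a log2 fold change of 1.21 ± 0.25 (adjusted p = 0.00178).

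Slfn3 was at 134, 86.8 and 96.2 normalized counts in Het M1 and at 376, 260 and 226 in KO M1, without overlap (log2 fold change 1.44 ± 0.30, adjusted p = 0.00184). Slfn4 was at 5882, 4208 and 7144 in Het M1 and at 16319, 8110 and 13886 in KO M1, also without overlap (log2 fold change 1.15 ± 0.31, adjusted p = 0.00986). The call on Slfn4 was lost without replicate 2 of Het M1 (adjusted p = 0.0589) and without replicate 1 of KO M1 (adjusted p = 0.0606). Slfn3 made up 1.33% to 2.23% of the pair's counts in Het M1 and 1.60% to 3.11% in KO M1, and the sum of the pair, which is nearly all Slfn4, had a log2 fold change of 1.16 ± 0.27 (adjusted p = 0.00408).

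Neither short member passed the test in M1. Slfn1 was at 2887, 2859 and 3291 in Het M1 and at 5057, 2838 and 4110 in KO M1, where replicate 2 of KO was the lowest of all 6 libraries (log2 fold change 0.41 ± 0.30, adjusted p = 0.299). Slfn2 was at 21844, 24714 and 24291 in Het M1 and at 38452, 24964 and 30824 in KO M1, so that every KO library lay above every Het library, yet the log2 fold change of 0.41 ± 0.20 did not pass the test (adjusted p = 0.112). The T cell marker sum was 0.899 to 1.67 CPM in Het M1 and 3.23 to 4.68 CPM in KO M1, with Cd3d at 0 in every M1 library. Lck, at 4 to 6 counts in Het M1 and 17 to 27 in KO M1, rose with the knockout (log2 fold change 1.90 ± 0.49). So did Cd4, at 12 to 25 and 45 to 63 counts (1.31 ± 0.45). Granulocyte markers summed to 79.1 to 145 CPM in Het and 51.4 to 71.6 CPM in KO. The B cell sum was 2.06 to 2.59 CPM in Het M1 and 5.09 to 6.96 CPM in KO M1. The macrophage sum was 43063 to 44545 CPM in Het M1 and 28314 to 35016 CPM in KO M1, and the stromal sum was 18.3 to 20.9 and 6.21 to 17.3 CPM, so that none of these 5 sums overlapped between genotypes. Their part in the M1 differences was not tested.

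After IL-4 and IL-13, Slfn9 alone of the 7 members passed the test between the genotypes. Slfn9 was at 751, 801 and 638 normalized counts in Het M2 and at 223, 225 and 209 in KO M2. The groups lay far apart and the log2 fold change was -1.74 ± 0.22 (adjusted p = 5.59e-05 in edgeR's quasi-likelihood test). It was the 1 of 7 members that fell, where 9.82% of all genes tested fell. Slfn8 was at 324, 202 and 234 in Het M2 and at 418, 365 and 241 in KO M2, which overlapped (log2 fold change 0.43 ± 0.31, adjusted p = 0.333). Slfn9 made up 69.9% to 79.9% of the Slfn8 and Slfn9 counts in Het M2 and 34.7% to 46.4% in KO M2, and the pair's sum fell by 0.81 on the log2 scale (SE 0.25, adjusted p = 0.0274).

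Slfn5 was at 1107, 584 and 607 in Het M2 and at 1201, 920 and 1209 in KO M2, replicate 1 of Het overlapping the KO range. Its log2 fold change of 0.54 ± 0.25 did not pass the test (adjusted p = 0.124). In M2, same-numbered replicates of the genotypes deviated together, and when these 6 libraries were fitted alone and blocked by replicate number Slfn5 passed (log2 fold change 0.59, adjusted p = 0.0472), which makes 2 of 7 members called. It also passed without replicate 1 of Het M2 (0.90, adjusted p = 0.0123). Slfn2 was at 7313, 6539 and 6291 in Het M2 and at 11062, 10555 and 6663 in KO M2. Only replicate 3 of KO lay inside the Het range, and without that library Slfn2 passed (log2 fold change 0.70, adjusted p = 0.00819), while with all libraries it was 0.49 ± 0.20 (adjusted p = 0.0819).

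Slfn1, Slfn3 and Slfn4 were near their lowest levels in M2 and their groups overlapped. Slfn1 was at 13.5, 4.44 and 5.66 in Het M2 and at 11.7, 14.8 and 1.01 in KO M2, the last of these being 1 deposited count. Slfn3 was at 38.8, 40.8 and 36.8 in Het M2 and at 26.6, 22.2 and 37.5 in KO M2 (log2 fold change -0.43 ± 0.35, adjusted p = 0.400). Slfn4 was at 20.7, 8.88 and 42.5 in Het M2 and at 23.4, 11.6 and 15.2 in KO M2 (log2 fold change -0.51 ± 0.56, adjusted p = 0.549). With an SE of 0.76 for Slfn1, no difference was detectable at this depth. The T cell markers summed to 0.256 to 0.755 CPM in Het M2 and 1.65 to 2.78 CPM in KO M2, and the granulocyte markers to 25.1 to 30.7 and 30.9 to 47.1 CPM. The macrophage markers summed to 9934 to 12139 CPM in Het M2 and 13792 to 19481 CPM in KO M2. Their part in the Slfn9 difference was not tested.

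**Figure D2:**
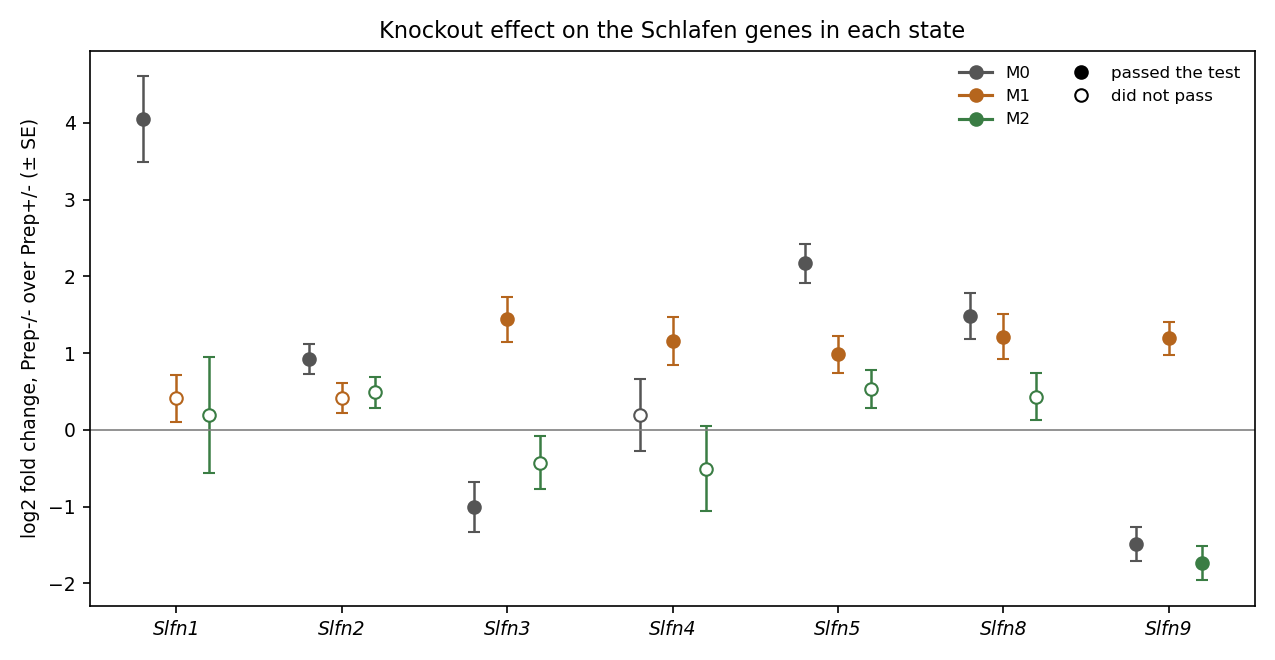
Log2 fold change of KO over Het (± SE) for each Schlafen gene in M0 (grey), M1 (brown) and M2 (green). Filled points passed the test and open points did not, the filled points being 6 for M0, 5 for M1 and 1 for M2, and Slfn9 lies below 0 in M0 and M2 but above 0 in M1.

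Whether the knockout effect differed between states was tested directly. Between M1 and M0, 4 members differed. The knockout effect was higher in M1 for Slfn3, by 2.44 ± 0.44 on the log2 scale (adjusted p = 9.92e-04 in edgeR's quasi-likelihood test), and for Slfn9, by 2.68 ± 0.30 (adjusted p = 3.21e-05), where 12.0% of all genes tested were called in that direction. It was lower in M1 for Slfn1, with a difference of -3.64 ± 0.66 (adjusted p = 0.00111), and for Slfn5, with -1.19 ± 0.34 (adjusted p = 0.0193), where 9.15% of all genes were. The call on Slfn5 was lost without replicate 2 of Het M0 (adjusted p = 0.0513) and without replicate 1 of KO M0 (adjusted p = 0.0549). For Slfn8, which was higher in KO in both states, the difference was -0.27 ± 0.41 (adjusted p = 0.662).

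Between M2 and M0 the knockout effect was lower in M2 for Slfn1 (-3.85 ± 1.01, adjusted p = 0.0255) and Slfn5 (-1.64 ± 0.35, adjusted p = 0.00888), 2 of 7 members where 4.13% of all genes tested were called. The call on Slfn1 was lost without replicate 2 of Het M0 (adjusted p = 0.0589), replicate 3 of Het M0 (adjusted p = 0.0523) or replicate 1 of Het M2 (adjusted p = 0.144). For Slfn8 the difference was -1.05 ± 0.43 (adjusted p = 0.132), and it passed without replicate 3 of KO M0 (-1.30, adjusted p = 0.0414). For Slfn9 the difference was -0.25 ± 0.31 (adjusted p = 0.649). Between M2 and M1 the effect was lower in M2 for Slfn3 (-1.87 ± 0.46, adjusted p = 0.0130) and Slfn9 (-2.93 ± 0.31, adjusted p = 6.25e-05), where 7.35% of all genes tested were called, and for Slfn4 the difference of -1.66 ± 0.64 did not pass (adjusted p = 0.0943). The Slfn4 difference passed with DESeq2 (-1.63, adjusted p = 0.0364), with the replicate block in the libraries compared (-1.62, adjusted p = 0.0221), without replicate 2 of Het M2 (-2.08, adjusted p = 0.0404) and as the sum of Slfn3 and Slfn4 (-1.62, adjusted p = 0.0258).

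The next comparison asks how each genotype responded to LPS. In Het, Slfn1, Slfn2, Slfn4, Slfn5 and Slfn8 rose from M0 to M1, 5 of 7 members where 16.7% of all genes tested rose, and Slfn9 fell, where 20.9% of genes fell. In KO all 7 members rose, where 20.9% of genes rose. The median log2 response was 2.43 over the members in Het and 2.17 in KO, against -0.03 and 0.00 over all genes tested. These comparisons share the M0 libraries with those above.

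Slfn1 and Slfn4 had the largest log2 responses of the 7, at 9.21 ± 0.51 and 7.57 ± 0.44 in Het and 5.57 ± 0.38 and 8.52 ± 0.45 in KO. Slfn2 responded by 2.13 ± 0.21 in Het and 1.61 ± 0.20 in KO, from an already high level. Slfn5 responded by 3.24 ± 0.26 in Het and 2.05 ± 0.25 in KO, and Slfn8 by 2.43 ± 0.31 and 2.17 ± 0.30. Slfn5 thus had a higher level in KO M0, a smaller fold rise in KO, and a higher level in KO M1 than in Het M1.

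Slfn3 and Slfn9 responded differently in the genotypes. Slfn3 had a log2 response of 0.50 ± 0.30 in Het (adjusted p = 0.180 in edgeR's quasi-likelihood test) and of 2.94 ± 0.32 in KO (adjusted p = 1.03e-06). Slfn9 fell by 0.93 in Het (SE 0.21, adjusted p = 0.00149) and rose by 1.75 ± 0.22 in KO (adjusted p = 4.28e-06). In the plot of levels by library, Slfn9 in KO M1 reached 1046 to 2222 normalized counts, overlapping the 1084 to 1484 of Het M0. Summed with Slfn8, the pair rose by 0.66 ± 0.25 in Het (adjusted p = 0.0333) and by 2.05 ± 0.25 in KO.

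The response to IL-4 and IL-13 was weaker. In Het, Slfn3 and Slfn9 fell from M0 to M2, 2 of 7 members where 6.77% of all genes tested fell. Slfn9 fell by 0.80 on the log2 scale (SE 0.21, adjusted p = 0.0133) and Slfn3 by 0.95 (SE 0.32, adjusted p = 0.0488). Neither call was firm: the adjusted p of Slfn9 was 0.0620 without replicate 3 of Het M0 and 0.0535 without replicate 3 of Het M2, and that of Slfn3 lay between 0.0846 and 0.231 when replicate 2 or 3 of Het M0 or any replicate of Het M2 was left out. The other 5 members had log2 responses between -0.48 and 0.65.

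In KO, 4 of 7 members fell from M0 to M2, where 15.5% of all genes tested fell. Slfn1 fell by 3.20 on the log2 scale (SE 0.52, adjusted p = 1.28e-04), Slfn5 by 1.80 (SE 0.25, adjusted p = 2.43e-05), Slfn8 by 1.53 (SE 0.30, adjusted p = 6.55e-04) and Slfn9 by 1.05 (SE 0.22, adjusted p = 0.00115). Of these, Slfn1, Slfn5 and Slfn8 were members that the knockout had raised in M0. Both comparisons use the same KO M0 libraries, so this fall is not independent of that rise. Slfn2 had a log2 response of -0.12 ± 0.20. Slfn4, at -1.04 ± 0.53 (adjusted p = 0.123), passed without replicate 3 of KO M0 (adjusted p = 0.0467). With all libraries it passed in the Wald test of DESeq2 (-1.05, adjusted p = 0.0462). The median over the members was -1.05 in KO and -0.34 in Het, against -0.02 and -0.01 over all genes.

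**Figure D3:**
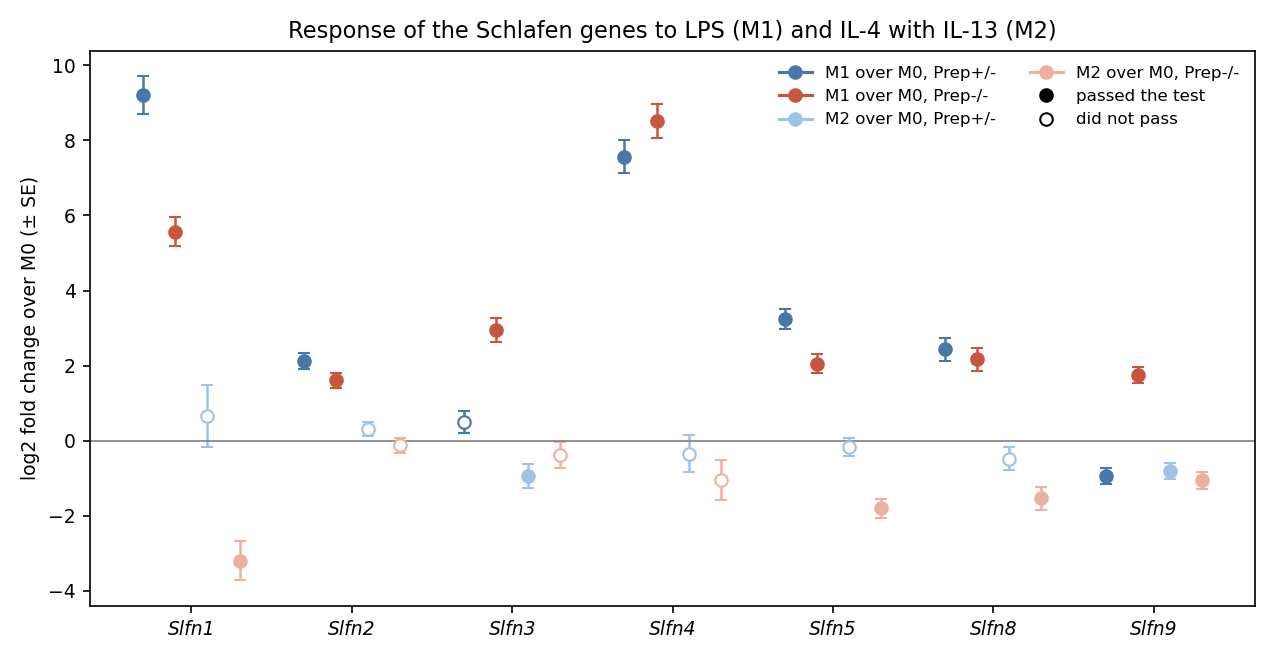
Log2 fold change over M0 (± SE) of each Schlafen gene in M1 (dark) and M2 (light), for Het (blue) and KO (red). Filled points passed the test, as all 7 KO points in M1 did, and the 2 M1 points of Slfn9 lie on opposite sides of 0.

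The order of the groups by mean level was read for each gene with the overlap of neighbours. Slfn4, Slfn5 and Slfn8 shared the order KO M1, Het M1, KO M0 for their 3 highest groups, with no overlap between the first 2, and for Slfn5 and Slfn8 KO M0 also lay apart from the groups on either side. Slfn2 followed the same order at the top. Slfn1 had KO M1 and Het M1 overlapping, then KO M0 alone, and then KO M2, Het M2 and Het M0, which overlapped one another. Slfn3 was highest in KO M1, followed by Het M1 and Het M0, which overlapped. Slfn9 was highest in KO M1 and Het M0, which overlapped, followed by Het M2 and Het M1, which also overlapped, and then by KO M0 and, lowest, KO M2, each without overlap with its neighbours.

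**Figure D4:**
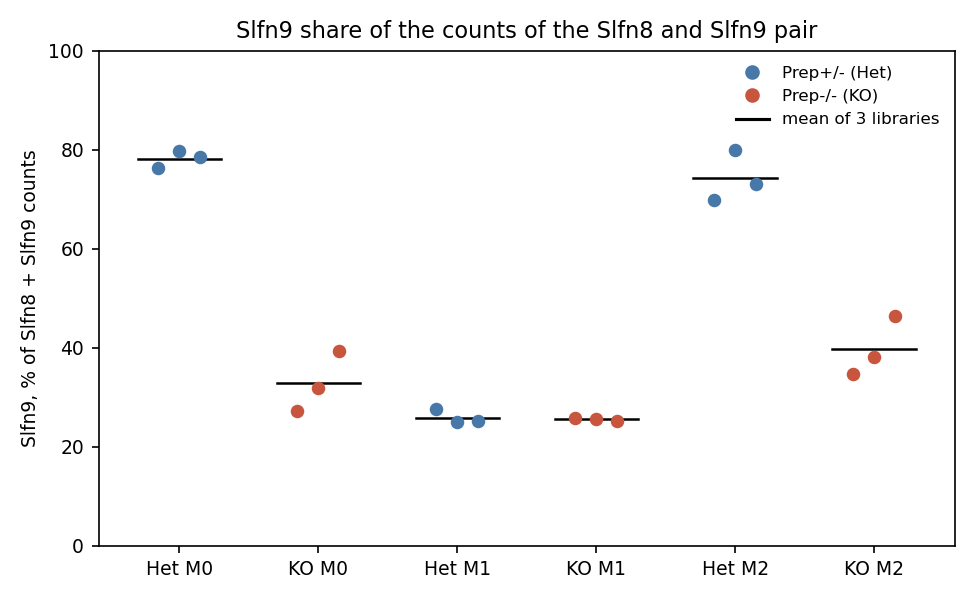
Slfn9 as a percentage of the summed Slfn8 and Slfn9 counts (axis from 0 to 100), with 1 point per library in Het (blue) and KO (red) and a line at the mean of 3 libraries. The share is 69.9% to 79.9% in the Het M0 and Het M2 libraries and 24.9% to 46.4% in all KO and all M1 libraries.

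The genes around the cluster were read in the same way. Of the 5 nearest protein-coding genes on each side that had rows in the count table, 7 of 10 were tested. In M0, Rffl, an E3 ubiquitin ligase, rose with the knockout (log2 fold change 1.64 ± 0.16, adjusted p = 1.33e-06 in edgeR's quasi-likelihood test), and Nle1, a ribosome assembly factor, fell by 0.79 (SE 0.26, adjusted p = 0.0183). The other 5 did not pass, and the median of the 7 was 0.07. Of all genes tested in M0, 15.4% rose and 17.2% fell, so the flanking calls lie near these shares. In M1 Nle1 fell by 1.22 (SE 0.26, adjusted p = 0.00233), where 10.2% of all genes tested fell. In M2 Rffl rose (1.04 ± 0.16, adjusted p = 1.83e-04), where 6.37% rose. From M0 to M1 the flanking genes had a median log2 response of 0.50 in Het and -0.01 in KO. Rffl (0.84) and 1700020L24Rik (2.08) rose in Het and Lig3 (0.91) in KO, where 16.7% and 20.9% of all genes tested rose. From M0 to M2 none passed in Het, while in KO Nle1 rose (0.97) and Rffl fell (-0.64). In that KO comparison, 14.7% of all genes tested rose and 15.5% fell.

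**Figure D5:**
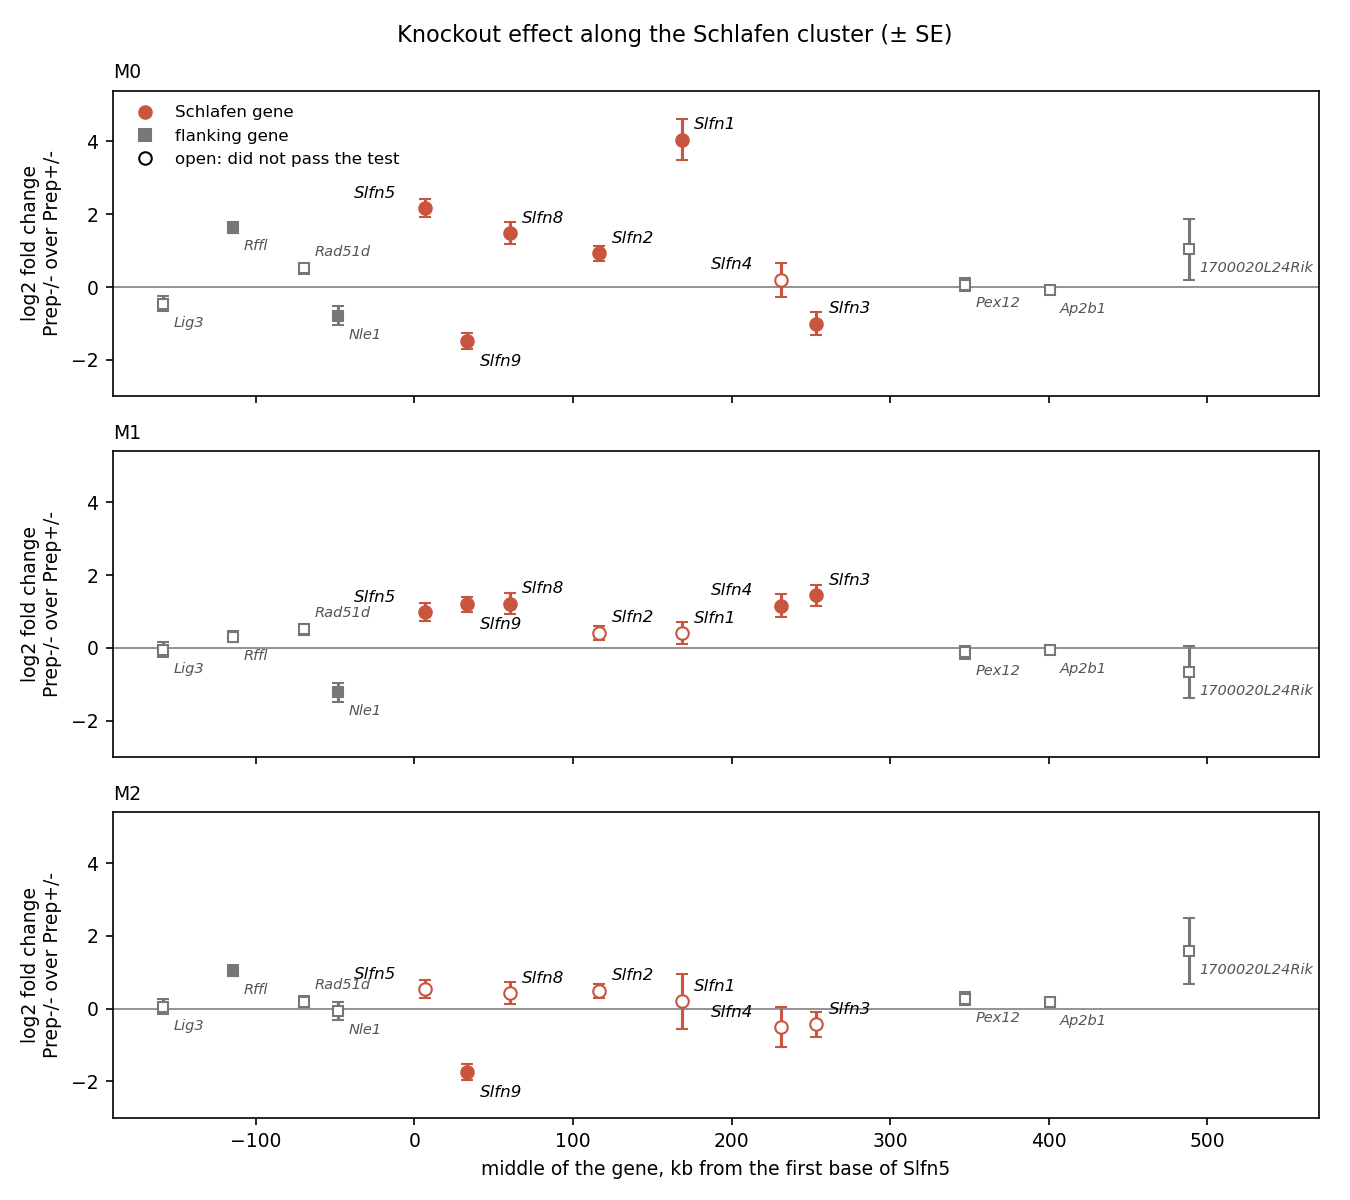
Log2 fold change of KO over Het (± SE) against the distance in kb from the first base of Slfn5 to the middle of each gene, for the 7 Schlafen genes (red circles) and 7 flanking genes (grey squares), in the 3 states. Filled symbols passed the test, as 6 Schlafen genes and 2 flanking genes did in M0, where 15.4% of all genes tested rose and 17.2% fell. Slfn9 lies below 0 between Slfn5 and Slfn8 in M0 and M2.

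The interferon pathway, which induces many Schlafen genes, was followed with 2 lists. Of 27 interferon-stimulated genes tested (30 were listed), 23 rose with the knockout in M0 (15.4% of all genes tested did), with a median log2 fold change of 1.46 beside 0.019 over all genes tested. The largest rises were those of Ifit3b (3.85 ± 0.46), Ifit3 (3.75 ± 0.46) and Ifit1 (3.66 ± 0.50), which encode proteins that bind viral RNA. In M1, 13 rose (12.3% of all genes tested did), led by Rsad2 (3.49 ± 0.48), which encodes viperin. In M2, 1 rose and 2 fell, where 6.37% of all genes tested rose and 9.82% fell. All 27 rose from M0 to M1 in Het and in KO, as did 16.7% and 20.9% of all genes tested. From M0 to M2, 2 fell in Het and 24 in KO, beside 6.77% and 15.5% of all genes tested. The knockout effect was lower in M2 than in M0 for 19, and for 4.13% of all genes tested. Slfn1, Slfn5 and Slfn8 likewise rose with the knockout in M0, rose in M1 in both genotypes, and fell from M0 to M2 in KO. The other members departed from this pattern. Slfn2 did not pass the test from M0 to M2 in KO, and Slfn4 did not pass with the knockout in M0. Slfn3 fell with the knockout in M0, and Slfn9 fell with it in M0 and M2. The knockout effect in M0 and the responses in KO share the KO M0 libraries.

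Of 17 genes of interferon signalling, 11 rose with the knockout in M0, where 15.4% of all genes tested rose, among them the transcription factors Irf7 (log2 fold change 1.89 ± 0.35) and Irf1 (1.48 ± 0.27) and Usp18 (1.79 ± 0.29), a brake on the interferon receptor. In M1, 7 rose (12.3% of all genes tested did), including Ifnb1, which encodes interferon beta (2.40 ± 0.75, adjusted p = 0.0286), and Stat2 (1.31 ± 0.21). In M2, Irf1 (1.16 ± 0.27) and Irf8 (0.84 ± 0.15) rose, 2 of 17 where 6.37% of all genes tested rose.

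Because Slfn1 and Slfn2 are known in T cells for growth arrest and quiescence, 19 genes of proliferation and quiescence were read beside the family. The list mixes genes of proliferation with genes of quiescence, so counts over it have no single direction. In M0, 15 fell with the knockout and 2 rose, where 17.2% of all genes tested fell and 15.4% rose. Among those that fell, the log2 fold change was -4.16 for Ccnd1 and -3.76 for Ccne1, which encode cyclins, and -3.76 for Myc. In M1, 7 fell and 2 rose (10.2% of all genes tested fell and 12.3% rose), with a log2 fold change of -2.56 for Myc. In M2, 11 fell where 9.82% of all genes tested did, led by Ccnd1 at -2.61. Slfn1 and Slfn2 rose with the knockout in M0 and did not pass the test in M1 or M2.

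For each member, the genes with the most similar profile over the 18 libraries were found by the root mean square difference (RMSD) of log2 CPM after centring each gene on its own mean, given in log2 units. Slfn1 was closest to Ifi206 (0.54), an interferon-inducible gene that went from 7.63 normalized counts in Het M0 to 106 in KO M0 and 4413 in KO M1. Slfn2 was closest to Parp10 (0.20) and Slfn5 to Trim30d (0.30). Slfn8 was closest to Ddx58 (0.27), which encodes the viral RNA sensor RIG-I. Slfn4 was less close to any gene, Acod1 coming first (0.72), the gene of the enzyme that makes itaconate in activated macrophages.

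Slfn3 and Slfn9 had other closest genes. Slfn3 was closest to Gca (0.41), which encodes the calcium-binding protein grancalcin. Slfn9 was closest to Cgas (0.42), the gene of the cytosolic DNA sensor, which was at a mean of 295 normalized counts in Het M0 and 115 in KO M0, at 204 in Het M1 and 312 in KO M1, and at 204 in Het M2 and 103 in KO M2. Within the family, Slfn5 and Slfn8 were the closest pair (0.39), while Slfn8 and Slfn9 differed by 1.41 and Slfn3 and Slfn4 by 3.04, so the close copies were not those with the most similar profiles.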

How the data were processed

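The data were read counts per gene in 18 bulk RNA-seq libraries. Reads had been trimmed by the authors (Trimmomatic 0.36, in the submitters' processing notes), who aligned them to GRCm39 (HISAT2 2.2.1.0), assembled transcripts with StringTie and deposited whole-number counts per gene symbol without normalization. Libraries were stranded, but the strand setting and the treatment of reads matching several genes are not given in the sources used here. Opposite-strand genes annotated over Slfn2, Slfn5, Slfn8 and Slfn9 had no rows in the count table. All columns matched 1 sample each.

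From the deposited counts, 12021 genes were kept by filterByExpr on the 6 groups and scaled by TMM (factors 0.818 to 1.20). The quasi-likelihood test of edgeR 4.0.16 (limma 3.58.1, R 4.3.3) used every library in 1 model with a term for each group (common biological coefficient of variation 0.167). Genes were called at an adjusted p under 0.05 (Benjamini-Hochberg) and a fold change over 1.5. The p-values rest on the spread between replicates, pooled over the 6 groups and moderated across genes. They do not reach beyond these 3 replicates per group. Knockout effects were tested in each state, responses to stimulation in each genotype, and differences of knockout effects as interactions. CPM and RPKM were computed here from the deposited counts with TMM-scaled library sizes and GENCODE vM39 canonical transcript lengths. Similarity of profiles was computed on log2 CPM (prior count 2). The genes named beside the 7 members were the called genes with the largest changes (up to 3 per list and comparison), the 3 most similar genes per member, and 5 flanking genes on each side. Ddx58 was not matched to its listed newer symbol, and Mx1 and Mx2 were not analysed here.

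Same-numbered replicates were checked for shared deviations from the group means. Every pair correlated above 0.1 only for KO against Het in M2 (0.249, 0.255 and 0.462) and for M1 against M0 in KO (0.201, 0.169 and 0.259), and what a number marks is not given in the sources used here. Alternatives were DESeq2 1.42.0 with its Wald test, its size factors, other filters, the replicate block, a fit of the compared groups alone, other criteria for the fold change, summed copies and leaving out each library. The code was tested on simulated data. The members and gene lists were chosen with earlier results of these data known, so no list is independent evidence.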

Additional observations from a re-analysis of the deposited data

Results flagged for a closer look

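The knockout effect differed between states, by a test of the difference itself (edgeR's quasi-likelihood interaction test), in 8 cases over the 7 members and 3 pairs of states. Of all genes tested, 12.0% were called higher and 9.15% lower between M1 and M0. The shares were 4.53% and 4.13% between M2 and M0, and 4.58% and 7.35% between M2 and M1. Between M1 and M0 the difference in log2 fold change was -3.64 for Slfn1 (adjusted p = 0.00111), 2.44 for Slfn3 (adjusted p = 9.92e-04), -1.19 for Slfn5 (adjusted p = 0.0193) and 2.68 for Slfn9 (adjusted p = 3.21e-05). Between M2 and M0 it was -3.85 for Slfn1 (adjusted p = 0.0255) and -1.64 for Slfn5 (adjusted p = 0.00888). Between M2 and M1 it was -1.87 for Slfn3 (adjusted p = 0.0130) and -2.93 for Slfn9 (adjusted p = 6.25e-05). Slfn9 was lower in KO in 3 of 3 M0 and 3 of 3 M2 libraries and higher in 3 of 3 M1 libraries than every Het library of the same state, and its value carries the uncertainty of reads shared with Slfn8.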

How the results depend on the processing

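Over the 7 members and 10 comparisons, 1143 of 1214 values under an alternative kept their direction and their side of the threshold, 37 lost a call, 13 gained one and 21 changed sign; the cause was not tested. Sign changes came from leaving out 1 library or from summing close copies. Summed with its copy, Slfn4 had -0.55 and Slfn8 -0.17 for KO against Het in M0, Slfn8 -0.81 in M2, Slfn9 0.66 for M1 against M0 in Het, Slfn8 1.38 for the KO and M1 interaction and Slfn4 0.088 for the KO and M2 interaction. When each library was left out in turn, KO against Het ranged from -0.12 to 0.51 for Slfn4 in M0, and in M2 from -0.32 to 0.84 for Slfn1 and from -0.94 to 0.18 for Slfn4. M2 against M0 ranged from -0.0076 to 0.94 for Slfn1 and from -1.05 to 0.061 for Slfn4 in Het, and from -0.32 to 0.061 for Slfn2 and from -0.62 to 0.060 for Slfn3 in KO. The KO and M1 interaction of Slfn8 ranged from -0.63 to 0.049, and the M2 against M1 interaction from -0.72 to 0.44 for Slfn1 and from -0.047 to 0.30 for Slfn2. None of these 10 had passed the test with all libraries.

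The number of members called for KO against Het was 3 in M0 with copies summed (6 as reported) and 2 in M1 with glmTreat, which tests against a 1.5-fold change (5 as reported). A summed pair that passed was counted for both its members. In M2 the number was 2 with the replicate block in the libraries compared and 1 to 2 without single libraries (1 as reported). With copies summed it was also 2 in M2, but this is the 1 summed pair of Slfn8 and Slfn9. For M2 against M0 in Het it was 1 with no filter, 1 with the replicate block in all libraries, 0 with glmTreat, 0 with copies summed and 0 to 2 without single libraries (2 as reported). For the KO and M2 interaction it was 0 with glmTreat and 1 to 3 without single libraries (2 as reported). For M2 against M1 it was 1 with glmTreat (2 as reported). With copies summed it was 4 for M2 against M1, which stands for the 2 summed pairs, each counted for both its members. With glmTreat, the calls that ended were those on Slfn2 and Slfn3 (KO against Het in M0), Slfn4, Slfn5 and Slfn8 (in M1), Slfn9 (M1 against M0 in Het), Slfn3 and Slfn9 (M2 against M0 in Het), and Slfn5, Slfn1, Slfn5 and Slfn3 (interactions of M1, M2, M2, and M2 against M1). The replicate block changed no other count by over 1.5 times and no call for M1 against M0 in KO.

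Over all genes, the calls fell with glmTreat from 3913 to 1970, 2700 to 634 and 1947 to 723 for KO against Het in M0, M1 and M2, from 4529 to 2956 and 5048 to 3212 for M1 against M0 in Het and KO, and from 1546 to 672 and 3636 to 1898 for M2 against M0. For the interactions they fell from 2540 to 751 (M1), 1041 to 103 (M2) and 1435 to 296 (M2 against M1). With no minimum fold change they were 4370 for KO against Het in M1 and 2967 in M2. Without replicate 1 of KO M1 there were 1742 in M1. For the KO and M2 interaction they were 562 with only the libraries compared, 669 with the replicate block in these, 502 and 555 without replicates 2 and 3 of Het M0, and 557 and 609 without replicates 1 and 2 of Het M2. For M2 against M0 in KO they were 2341 with the replicate block in the libraries compared. Low counts limited Slfn1 in Het M0 and both M2 groups and Slfn3 and Slfn4 in M0 and M2.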
